A study of Mus musculus with 6 samples.

Results

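A set of 9 genes of the B lymphocyte lineage was followed in RNA sequencing of a macrophage and tumour co-culture. They were Cd79a, Cd79b, Ms4a1, Pax5, Ebf1, Vpreb1, Vpreb3, Igll1 and Rag1, taken by gene name from a table of 54532 genes, and all 9 were found. The 6 libraries came from bone marrow-derived macrophages (BMDMs) grown in vitro with ID8, an ovarian cancer line of the mouse. For 3 libraries the label gave 40 µM cisplatin, the platinum drug that crosslinks DNA, and in 3 it gave phosphate-buffered saline (PBS). The drug was given to ID8 before the co-culture, and the macrophages were started from marrow monocytes of adult C57BL/6 mice kept in RPMI medium with serum. No sort or growth factor was named for them, and the time in co-culture and the sex of the marrow donors were not given in the sources used here. The paper states a sex, female, only for the mice of its tumour experiments. Both groups therefore shared the strain, the marrow culture and the tumour line, and differed by the treatment of the tumour cells. The groups are called cisplatin and PBS below. The labels did not say whether replicates were separate cultures or animals, so each p-value measures the spread between these libraries, which may be technical.

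B lymphocytes arise in bone marrow. The transcription factors EBF1 and PAX5 set and hold the lineage, and the recombinase RAG1, working with RAG2, cuts the immunoglobulin genes for rearrangement. A pre-B cell first shows its heavy chain with a surrogate light chain built from VPREB1 and IGLL1, and VPREB3 is a further protein of precursor B cells that binds immunoglobulin chains. CD79A and CD79B carry the signal of both this pre-B cell receptor and the mature B cell receptor, and MS4A1, better known as CD20, is a surface protein of later B cells. Macrophages are not a usual source of these transcripts, although marrow is.

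The starts of the genes are shown first because several of these genes are known targets of the E2A proteins, which bind E-box letters, and of EBF1. RefSeq promoters on GRCm38.p6, running from 250 bases before to 50 bases after the gene start, were matched for 7 of the 9 genes and not for Cd79b and Ms4a1. The 4 promoters that held CAGCTG or CAGGTG on either strand are printed 5′ to 3′ along the gene, with these letters in capitals (CACCTG is CAGGTG read on the other strand).
Igll1 (chr16:16863936-16864235, minus strand): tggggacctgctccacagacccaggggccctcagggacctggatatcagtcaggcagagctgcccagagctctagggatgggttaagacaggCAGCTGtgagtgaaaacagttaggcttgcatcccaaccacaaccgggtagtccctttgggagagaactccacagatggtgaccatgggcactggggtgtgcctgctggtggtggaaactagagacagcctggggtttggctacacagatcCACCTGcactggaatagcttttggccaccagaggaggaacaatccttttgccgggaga
Vpreb1 (chr16:16869206-16869505, minus strand): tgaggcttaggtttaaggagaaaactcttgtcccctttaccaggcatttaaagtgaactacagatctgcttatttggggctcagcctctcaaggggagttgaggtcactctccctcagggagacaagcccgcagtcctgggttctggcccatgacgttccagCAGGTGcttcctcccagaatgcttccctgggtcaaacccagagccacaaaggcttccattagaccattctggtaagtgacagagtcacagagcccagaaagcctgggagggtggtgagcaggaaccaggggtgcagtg
Rag1 (chr2:101649483-101649782, minus strand): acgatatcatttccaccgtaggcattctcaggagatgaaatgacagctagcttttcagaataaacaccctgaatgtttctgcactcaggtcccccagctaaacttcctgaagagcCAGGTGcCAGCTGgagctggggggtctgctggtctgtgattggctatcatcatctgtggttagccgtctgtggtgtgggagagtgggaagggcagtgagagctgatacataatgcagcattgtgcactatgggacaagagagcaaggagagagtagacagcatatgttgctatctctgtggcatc
Cd79a (chr7:24897247-24897546, plus strand): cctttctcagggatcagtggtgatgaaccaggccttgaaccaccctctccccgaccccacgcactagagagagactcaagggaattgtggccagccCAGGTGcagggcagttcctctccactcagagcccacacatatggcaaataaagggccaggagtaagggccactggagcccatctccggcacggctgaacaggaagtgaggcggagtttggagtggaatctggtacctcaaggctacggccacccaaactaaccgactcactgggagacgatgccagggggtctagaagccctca

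In Rag1 the 2 matches lay side by side, with their first bases 135 and 128 bases before the start. The Igll1 matches began 158 and 8 bases before the start, the Cd79a match 154 and the Vpreb1 match 88 bases before it. Either set of letters was present in the promoters of 4 of the 7 genes and in 32.9% of the 32851 promoters in the RefSeq table. The first count is by gene and the second by promoter, and Ebf1 has 2 promoters there. The promoters of Pax5, Ebf1 and Vpreb3 held neither. The palindrome bound by EBF1 (TCCC, any 2 bases, then GGGA) was in no promoter of the 7 genes and in 0.904% of all promoters. No match overlapped another, and a match is a description of the window alone.

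All 9 genes were detected in all 6 libraries, and all 9 were higher in each cisplatin library than in any PBS library. Levels are given as FPKM, mapped fragments scaled to gene length and library depth, which sets them per length so that genes can be compared. A gene was called when limma's adjusted p was under 0.05 and the log2 fold change of FPKM + 1 was at least 1 in size. By this rule 6 of the 9 were upregulated with cisplatin (Cd79a, Cd79b, Ms4a1, Vpreb3, Igll1 and Rag1), where 4.67% of the 13441 genes tested were upregulated and 11.3% downregulated. Pax5, Ebf1 and Vpreb1 passed the p threshold with smaller changes, so that 9 of 9 were higher by adjusted p alone, beside 32.9% of all genes tested that were higher and 35.1% that were lower. A complete separation of the groups in this direction was seen in 35.2% of the genes tested, and in the opposite direction in 37.2%. None of the 9 was below 1 FPKM in any library, so no member passed the filter on low values through 1 group only.

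**Figure D1:**
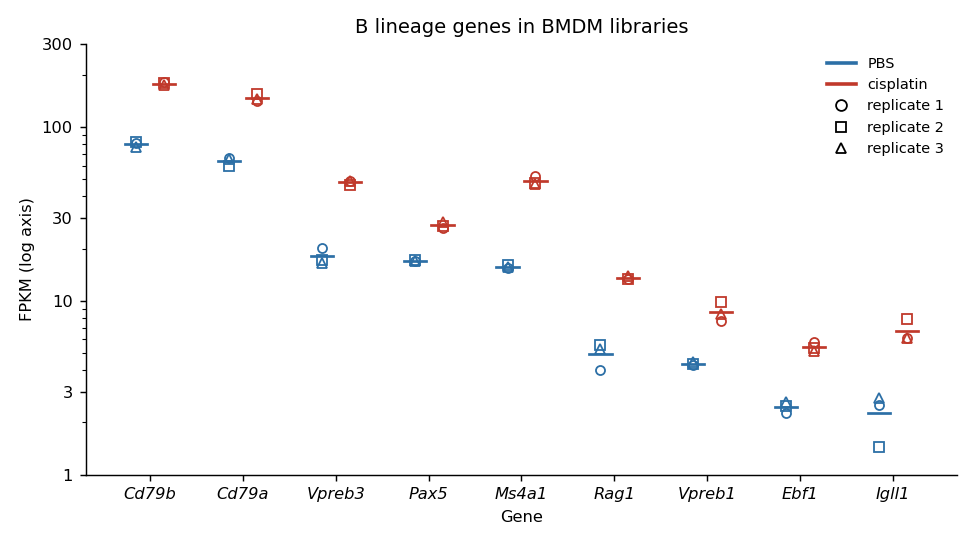
FPKM (log axis) of the 9 B lineage genes in the 3 PBS libraries (blue) and the 3 cisplatin libraries (red); the symbol gives the replicate and the bar the group mean. For all 9 genes the red points lie above the blue ones, from Cd79b at a mean of 178 FPKM with cisplatin and 79.8 with PBS to Igll1 at 6.71 and 2.25.

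The genes of the pre-B cell receptor came first. Vpreb1 (ENSMUSG00000059305, chr16:16868403-16870843, minus strand), the variable-like piece of the surrogate light chain, stood at 7.65, 9.80 and 8.38 FPKM in cisplatin replicates 1 to 3 and at 4.29, 4.34 and 4.46 in PBS replicates 1 to 3. The PBS values were close together and the lowest cisplatin value was well above them. The means were 8.61 ± 1.09 and 4.36 ± 0.0906 FPKM (SD, n = 3 each), and the log2 fold change was 0.84 (SE 0.0853, limma adjusted p = 0.000126). These levels rested on 156 to 193 reads per cisplatin library and 81 to 91 per PBS library. The gene lies across Top3b on the other strand, which reached 9.46 FPKM, and the sources do not state whether reads were counted by strand. It also has a near-identical copy, Vpreb2, so its reads are uncertain.

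Igll1 (ENSMUSG00000075370, chr16:16860671-16863985, minus strand) encodes λ5, the constant-like piece of the surrogate light chain. It was at 6.09, 7.88 and 6.16 FPKM with cisplatin and at 2.53, 1.45 and 2.77 FPKM with PBS. PBS replicate 2 was the low one, with 49 reads against 97 and 93, and its 95% Poisson interval of 36.3 to 64.8 reads did not meet those of the other PBS libraries (from 75.1 reads up); this interval covers counting error only. The means of 6.71 ± 1.02 and 2.25 ± 0.702 FPKM (SD, n = 3 each) corresponded to 1.26 on the log2 scale (SE 0.178, limma adjusted p = 0.000651), the widest error among the 9 genes.

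Vpreb3 (ENSMUSG00000000903, chr10:75943057-75949657, plus strand) was far more abundant than its partners on the per-length scale, at 49.2, 46.4 and 49.1 FPKM with cisplatin. In the PBS libraries it was at 20.3, 17.2 and 16.6 FPKM. The groups were far apart, and the log2 fold change was 1.38 (SE 0.0748, limma adjusted p = 5.61e-06). A pseudogene that overlaps it, Gm16221, reached 1.64 FPKM.

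Rag1 (ENSMUSG00000061311, chr2:101638282-101649501, minus strand) encodes the cutting subunit of the V(D)J recombinase, which is used at the pro-B and pre-B stages and in thymocytes. Its level was 13.3, 13.3 and 13.9 FPKM in the cisplatin libraries and 4.03, 5.61 and 5.30 FPKM in the PBS libraries. The cisplatin values were nearly equal, and PBS replicate 1 was the lowest. The log2 fold change was 1.29 (SE 0.103, limma adjusted p = 3.71e-05), on 1441 to 1516 reads with cisplatin and 471 to 577 with PBS. B230118H07Rik overlaps it on the same strand and reached 1.95 FPKM.

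The receptor's signalling subunits were the most abundant of the 9. Cd79a (ENSMUSG00000003379, chr7:24897381-24902197, plus strand) encodes Igα and stood at 141, 154 and 145 FPKM with cisplatin against 66.6, 59.8 and 65.4 FPKM with PBS. Cd79b (ENSMUSG00000040592, chr11:106311341-106314762, minus strand) encodes Igβ, its partner in the heterodimer, and stood at 181, 179 and 174 FPKM against 80.98, 81.7 and 76.7 FPKM. Neither gene has an overlapping neighbour, and in both every cisplatin library was far above every PBS library. The pair changed by nearly the same amount on the log2 scale, by 1.19 (SE 0.0530, limma adjusted p = 2.17e-06) for Cd79a and 1.15 (SE 0.0373, limma adjusted p = 5.24e-07) for Cd79b. Their ratios of mean FPKM were 2.30 and 2.23.

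Ms4a1 (ENSMUSG00000024673, chr19:11249675-11266241, minus strand), which encodes CD20, had the largest log2 fold change of the 9. It was at 52.1, 47.7 and 47.1 FPKM with cisplatin and at 15.5, 16.2 and 15.6 FPKM with PBS. Both groups were tight, and the log2 fold change was 1.58 (SE 0.0482, limma adjusted p = 4.06e-07), a ratio of means of 3.11. An antisense gene within it, 4930526L06Rik, did not exceed 0.06 FPKM.

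The last 2 genes encode transcription factors. Ebf1 (ENSMUSG00000057098, chr11:44617317-45008091, plus strand), the early B cell factor, was at 5.78, 5.37 and 5.18 FPKM with cisplatin and at 2.27, 2.48 and 2.64 FPKM with PBS. Its log2 fold change of 0.90 (SE 0.0696, limma adjusted p = 3.17e-05) lay below the threshold of 1, while its ratio of means was 2.21. This gap comes from the pseudocount of 1, which weighs more on low levels: with 0.1 in its place the log2 fold change was 1.11 and Ebf1 was called, where 7.24% of genes tested were called higher and 14.7% lower. By limma voom on reads recovered from the FPKM steps, 8 of the 9 genes were called, all but Pax5, beside 9.13% of genes higher and 13.9% lower. That fit also differs in library scaling and variance model, so its count is not the effect of the pseudocount alone. Vpreb1, called by voom, was at 0.96 with a pseudocount of 0.1 and was not called there.

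Pax5 (ENSMUSG00000014030, chr4:44524757-44710487, minus strand), which keeps B cells committed, was at 26.3, 27.0 and 28.5 FPKM with cisplatin and at 16.9, 17.1 and 16.9 FPKM with PBS. The groups did not overlap, and the PBS libraries differed by less than 1 FPKM. Its log2 fold change of 0.65 (SE 0.0413, limma adjusted p = 1.15e-05) was the smallest of the 9, and its ratio of means of 1.61 was also the lowest. Small genes inside the Pax5 span, among them Mir5120 and Gm12462, reached up to 7.03 FPKM.

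Added over the 9 genes, the level was 483, 490 and 477 FPKM in the cisplatin libraries and 213, 206 and 206 FPKM in the PBS libraries. The mean of 483 ± 6.42 FPKM was 2.32 times that of 209 ± 4.17 FPKM (SD, n = 3 each; exact permutation test over libraries, two-sided p = 0.1, the smallest p that 3 against 3 allows). In a bulk library, fewer cells of a type and less RNA per cell cannot be told apart.

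The 9 genes covered a wide range of levels within a group, as their mean FPKM shows. With cisplatin the order by mean FPKM was Cd79b, Cd79a, Ms4a1, Vpreb3, Pax5, Rag1, Vpreb1, Igll1 and Ebf1, and the ranges of Ms4a1 and Vpreb3 overlapped, as did those of Vpreb1 and Igll1. With PBS it was Cd79b, Cd79a, Vpreb3, Pax5, Ms4a1, Rag1, Vpreb1, Ebf1 and Igll1. Here the overlapping neighbours were Vpreb3 and Pax5, Rag1 and Vpreb1, and Ebf1 and Igll1. Among all genes Cd79b ranked 201 with cisplatin and 556 with PBS, and Ms4a1 ranked 971 and 3774. Ebf1 ranked 7569 and 10598.

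The spread between libraries was near what read counting alone gives for several of the 9 genes and above it for others. Pax5 had a coefficient of variation of 0.90% over the PBS libraries where counting error gives 2.02%, and Vpreb1 had 2.08% where it gives 10.85%. Igll1 in the PBS group varied by 31.2% (11.2% from counting) and Rag1 by 16.8% (4.34% from counting). In the cisplatin group the widest were Igll1 at 15.2% and Vpreb1 at 12.7%, and Cd79b was the narrowest at 2.21%.

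To see whether the genes moved in proportion, each was set against the mean of the other 8 on the log2 FPKM scale within its library, which removes any scaling factor of the library. Ms4a1 was higher relative to the others by 0.43 with cisplatin, and Pax5 and Vpreb1 were lower by -0.64 and -0.32. For these 3 genes the libraries of the groups did not overlap, each with an exact permutation p of 0.1 (two-sided, the smallest possible) and 0.257 after Benjamini-Hochberg adjustment over the 9 comparisons. The other 6 genes overlapped between groups, with differences from -0.12 for Ebf1 to 0.41 for Igll1. The Igll1 and Rag1 ranges were set by PBS replicate 2 and PBS replicate 1, their low libraries.

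**Figure D2:**
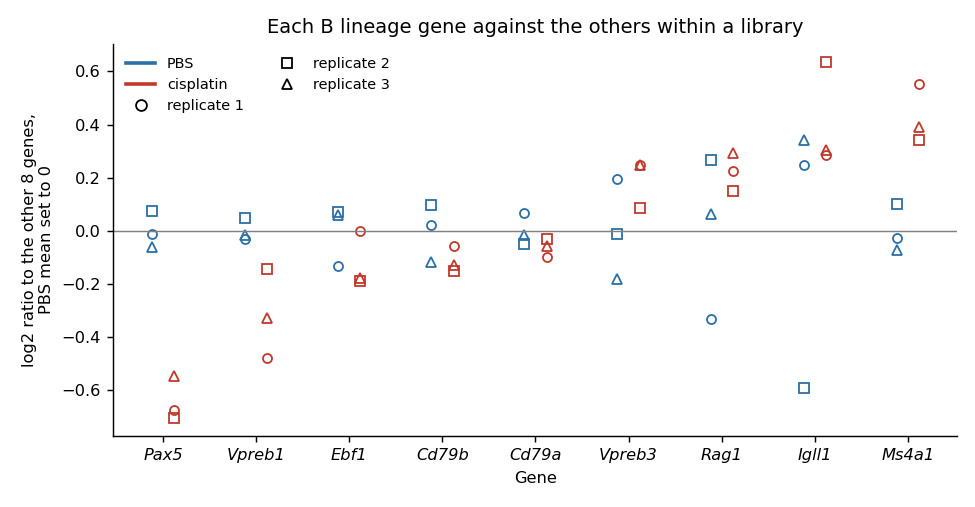
Log2 ratio of each B lineage gene to the mean of the other 8 genes in the same library, with the PBS mean of each gene set to 0 (blue PBS, red cisplatin; symbols give the replicate). Pax5 and Vpreb1 lie below 0 and Ms4a1 above 0 in all 3 cisplatin libraries, while the other 6 genes overlap between the groups.

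The libraries were not of macrophages alone. ID8 and mesothelial markers summed to 242 to 262 FPKM with cisplatin and 1307 to 1411 with PBS. Of the 9 tested 8 were downregulated, beside 11.3% of all genes tested. They were led by the epithelial keratin Krt19 at 51.1 ± 3.80 against 588 ± 28.8 FPKM (SD, n = 3 each; log2 fold change -3.50, limma adjusted p = 7.18e-08) and the mesothelial factor Wt1 (-3.14). The level of these markers moved with the group. All 12 of 12 pan-leukocyte genes were higher by adjusted p, beside 32.9% of all genes tested. Their median was 0.84 on the log2 scale, and the largest were Was at 1.19 and Cd48 at 1.12. The common leukocyte antigen Ptprc (CD45) was at 39.2 ± 0.788 against 23.4 ± 0.0472 FPKM. Macrophage markers were present in both groups, and Adgre1 (F4/80) stood at 190 ± 3.52 and 103 ± 1.06 FPKM, near the level of Cd79b.

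For this reason the 9 genes were also set against leukocyte RNA, by scaling each library to its 12 pan-leukocyte genes. The factor between the groups was 0.81 on the log2 scale, and the median log2 fold change of all genes tested moved from -0.0011 to -0.68. On this scale 7 of the 9 B lineage genes were higher by limma's adjusted p alone (5.85% of all genes tested were, and 78.0% were lower), Pax5 was lower at -0.12 (adjusted p = 0.0409), and Vpreb1 was at 0.14 (adjusted p = 0.165). None of the 9 had a log2 fold change of 1, where 0.863% of the genes tested were upregulated and 29.5% downregulated. Ms4a1 was the highest at 0.79 (adjusted p = 3.28e-06). Igll1 followed at 0.63, Vpreb3 at 0.59 and Rag1 at 0.57, and Cd79a, Cd79b and Ebf1 were at 0.38, 0.34 and 0.26. Relative to leukocyte genes the differences in the 9 genes were thus below the 2-fold threshold, and Pax5 turned its direction. On the same scale 6 of the 12 pan-leukocyte genes were higher by adjusted p and 3 lower. For 12 macrophage markers these counts were 7 and 2, and for 15 mature B surface genes 9 and 4. The p-values take the scaling factor as known. After scaling its 12 reference genes ran from -0.59 for Rac2 to 0.40 for Was, and Pax5, Vpreb1, Ebf1, Cd79b and Cd79a lay within that spread.

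Scaling by 4 Y-linked genes gave a second view, because ID8 came from a female mouse; all 4 were higher with cisplatin by adjusted p. The median of all genes tested moved to -0.83. Of the 9 genes 4 remained higher by limma's adjusted p (Cd79b 0.16, Ms4a1 0.62, Vpreb3 0.41 and Rag1 0.40; 3.71% of all genes tested were, and 82.6% were lower), Pax5 was lower at -0.30 (adjusted p = 0.00351), and Vpreb1 turned to -0.02 (adjusted p = 0.855). Cd79a at 0.20, Ebf1 at 0.11 and Igll1 at 0.48 did not pass. None of the 9 was called on this scale, beside 0.632% of genes called higher and 38.5% called lower. Here too the p-values take the scaling factor as known. After scaling the 4 reference genes ran from -0.25 for Eif2s3y (limma adjusted p = 0.00769) to 0.23 for Ddx3y (adjusted p = 0.00675), and Cd79b at 0.16 lay within that spread. On this scale 6 of 12 macrophage markers were higher by adjusted p and 3 lower.

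**Figure D3:**
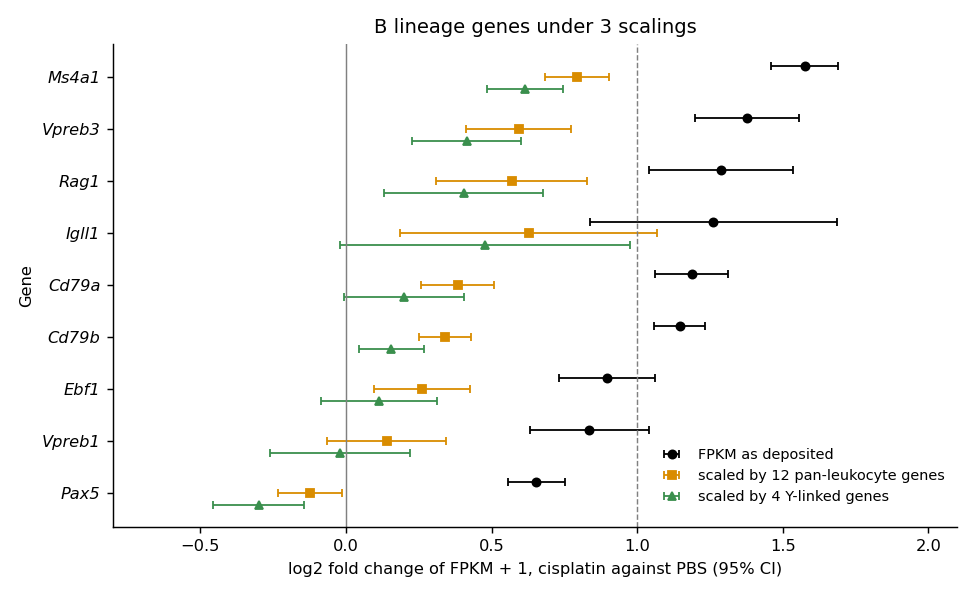
Log2 fold change of FPKM + 1 (cisplatin against PBS) of the 9 B lineage genes with its 95% confidence interval, for FPKM as deposited (black), after scaling by 12 pan-leukocyte genes (orange) and after scaling by 4 Y-linked genes (green); the dashed line marks the threshold of 1. All 9 black points are above 0, and Pax5 falls below 0 under both other scalings (-0.12 and -0.30) and Vpreb1 under the Y-linked one (-0.02).

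Other genes of the lineage were read from lists written with earlier results of these data known, so their counts are descriptions. Counts of calls on FPKM as deposited stand beside 628 of 13441 tested genes called higher and 1514 called lower. The median difference over all genes tested was -0.0011 (log2). Counts by adjusted p alone stand beside 32.9% of genes higher and 35.1% lower. For calls after leukocyte scaling the shares were 0.863% higher and 29.5% lower, and the median was -0.68. For calls after Y-linked scaling they were 0.632% and 38.5%, and the median was -0.83. Among 16 further pre-B and progenitor genes 14 were tested, 5 were upregulated and 1 was downregulated, with a median of 0.73 on the log2 scale. Leukocyte scaling left none of the 14 upregulated and 2 downregulated (Mme and Sox4), with a median of 0.17, and Y-linked scaling gave the same counts and a median of 0.04. Of the 14, 3 (Rag2, Flt3 and Mme) were below 1 FPKM throughout 1 group, so they passed the filter only through the group where they were high. The cytokine receptor Il7r, on which mouse B precursors depend, was at 14.2 ± 0.67 FPKM with cisplatin and 6.11 ± 0.525 with PBS (log2 fold change 1.10, limma adjusted p = 1.07e-05). Cd93, carried by immature B cells and also by myeloid cells, rose by 1.76 and Akap12, a kinase anchor, by 1.70. The terminal transferase Dntt, which adds bases at V(D)J junctions, was at 9.18 ± 0.464 against 4.47 ± 0.596 FPKM (0.90, adjusted p = 0.000101). Rag2, the partner of RAG1, was far lower than Rag1 at 1.27 ± 0.126 against 0.58 ± 0.112 FPKM (0.53, adjusted p = 0.00381), and passed the filter through the cisplatin libraries only.

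Exceptions were picked out after their values were seen. Mme (CD10), which stromal cells also make, was at 3.42 FPKM with PBS and 0.36 with cisplatin (log2 fold change -1.70, limma adjusted p = 7.52e-06) and passed the filter through the PBS libraries only, and Sox4, an early progenitor factor, was lower at -0.68 (adjusted p = 0.000188).

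The mature B surface list held 9 upregulated genes and none downregulated among 15 tested (13 higher and 1 lower by adjusted p alone), with a median of 1.09. After leukocyte scaling 1 was upregulated and 1 downregulated, with a median of 0.32, and after Y-linked scaling 1 and 1, with a median of 0.14. Cd180, a receptor of the Toll-like family on B cells and macrophages, rose by 1.52 (limma adjusted p = 4e-06). Fcer2a (CD23), the low-affinity IgE receptor of mature B cells, was at 2.63 ± 0.105 against 0.27 ± 0.0525 FPKM. It was below 1 FPKM in all 3 PBS libraries and passed the filter only through the cisplatin group. Cxcr5, the follicle-homing chemokine receptor, was the one that was lower, at 6.01 ± 0.313 against 8.51 ± 1.08 FPKM (-0.44, adjusted p = 0.00394; chosen after its values were seen).

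Of 14 further transcription factors 13 were higher by adjusted p and 1 was called, beside 32.9% and 4.67% of all genes tested. Their median of 0.51 turned to -0.26 after leukocyte scaling. The called gene was Ikzf3 (Aiolos) at 1.16 (limma adjusted p = 9.63e-07). Spi1 (PU.1), which myeloid cells need as well, was at 0.92 and turned to -0.06 under Y-linked scaling. Of 18 receptor signalling genes 17 were higher by adjusted p and 4 were called, beside the same shares, with a median of 0.66 (-0.13 after leukocyte scaling). The kinase Btk was highest at 1.41, followed by the adaptor Dok3 at 1.35, and both are also made by macrophages. After leukocyte or Y-linked scaling none of these 14 and 18 genes was called in either direction.

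Immunoglobulin constant genes were abundant. Ighm, the µ heavy chain, was at 701, 682 and 676 FPKM with cisplatin against 370, 398 and 373 with PBS, and Igkc, the κ light chain, was at 643, 626 and 606 against 314, 339 and 299 FPKM. Both groups were apart for both genes, at log2 fold changes of 0.85 (limma adjusted p = 2.49e-06) and 0.98 (adjusted p = 5.3e-06), and these turned to -0.15 and -0.02 under Y-linked scaling. In the whole list 10 of 12 genes were tested, 7 were higher by adjusted p and 2 were called (Ighg1 at 1.39 and Ighg2b at 1.11, both switched isotypes), with a median of 0.81. Ighg1 was at 0.23 ± 0.142 FPKM with PBS and passed the filter only through the cisplatin libraries. After leukocyte scaling Ighg1 alone was called (1.04), and after Y-linked scaling none of the 10 was. Plasma cell genes went in both directions: of 8 tested, none was upregulated and 1 was downregulated, 2 were higher and 4 lower by adjusted p, and the median was -0.18. Leukocyte scaling moved it to -0.96 with 2 downregulated, and Y-linked scaling to -1.14 with 5 downregulated (29.5% and 38.5% of all genes tested were). The downregulated one was Sdc1 (CD138), which epithelial cells also carry, at 18.8 ± 1.16 against 50.6 ± 2.08 FPKM. The others lower by adjusted p were Derl3 (-0.69), Xbp1 (-0.19) and Txndc5 (-0.16). The 2 higher ones were Jchain, the joining chain of secreted IgM and IgA, at 0.95 (adjusted p = 0.00106) and Tnfrsf13b at 0.74.

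**Figure D4:**
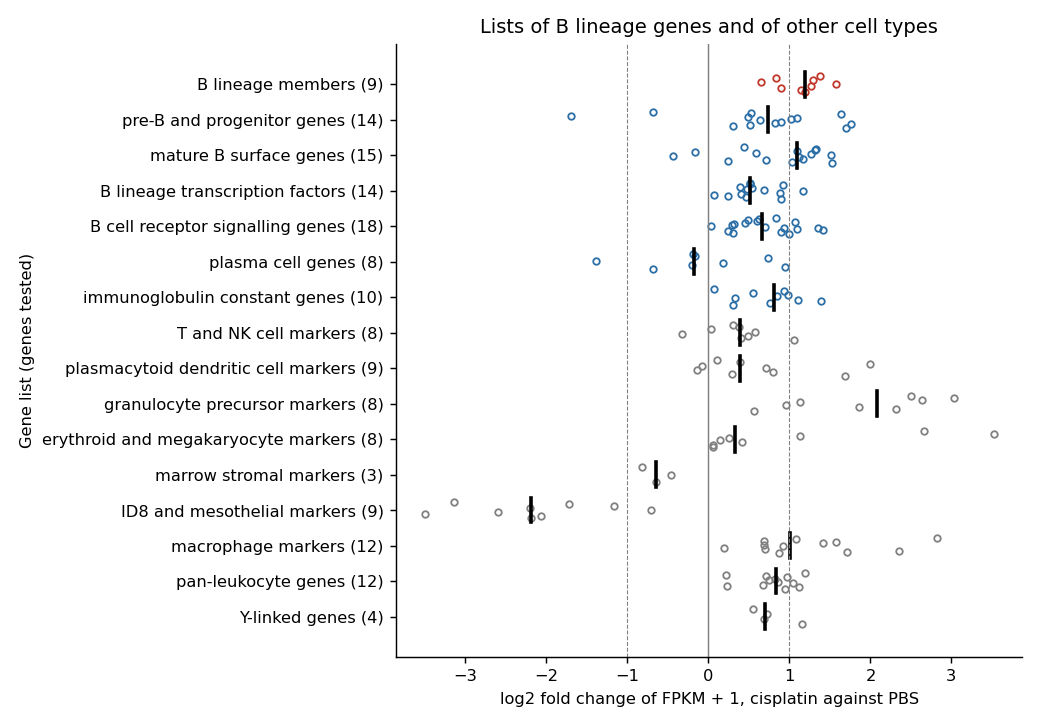
Log2 fold change of FPKM + 1 (cisplatin against PBS) of each tested gene in 16 lists, with the number tested in brackets, the median as a black bar and dashed lines at the thresholds of -1 and 1. The 9 B lineage genes (red, median 1.19) lie above 0, as do most other B lineage lists (blue), while ID8 and mesothelial markers (grey, median -2.19) lie below; under leukocyte scaling the medians of the transcription factor, receptor signalling, T and NK, plasmacytoid and erythroid lists fall below 0.

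Markers of other marrow cells differed between the same libraries to unequal extents. Granulocyte precursor markers had a larger change than the 9 genes, with 6 of 8 upregulated, a median of 2.08 and sums of 494 to 531 against 103 to 110 FPKM, led by Ms4a3 (3.03) and the myeloperoxidase gene Mpo (2.63). After leukocyte scaling 5 of the 8 were upregulated with a median of 1.29, and after Y-linked scaling 4 with a median of 1.11. Macrophage markers had 6 of 12 upregulated and a median of 1.0, with sums of 4244 to 4400 against 1647 to 1658 FPKM, with the complement gene C1qb at 2.35 and the mannose receptor Mrc1 at 2.82. Leukocyte scaling left 3 of the 12 upregulated with a median of 0.37, and Y-linked scaling 2 with a median of 0.19. Mrc1 and Mertk, 2 of the 6 calls, were below 1 FPKM in all PBS libraries and passed the filter only through the cisplatin group. Of 8 erythroid and megakaryocyte markers tested 3 were upregulated and 5 did not pass adjusted p, with a median of 0.33; leukocyte and Y-linked scaling each left 2 upregulated. All 3 are megakaryocyte genes, Pf4 (3.52), Ppbp (2.66) and Itga2b (1.14), while the globin genes Hba-a1 and Hbb-bs were at 0.06 and 0.14 and did not pass. Another megakaryocyte gene of the list, Gp1ba, was at 0.05 and did not pass either (limma adjusted p = 0.782), and Gp9 was not tested. Plasmacytoid dendritic cells share Rag1, Dntt and many B cell regulators with B precursors. Of 9 of their markers tested 2 were upregulated, 4 were higher by adjusted p and 5 did not pass, with a median of 0.39 that turned to -0.12 after leukocyte and -0.28 after Y-linked scaling. The called genes were Siglech at 1.99 and Ccr9 at 1.69, and Ccr9 and Klk1 were below 1 FPKM in all PBS libraries and passed the filter only through the cisplatin group. Siglech and Ccr9 were also called after leukocyte scaling (1.36 and 1.21) and after Y-linked scaling (1.21 and 1.10). The list's sum of 257 to 273 against 158 to 162 FPKM was mostly Ly6d (229 against 139 FPKM), which B precursors also make.

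T and NK cell markers were scarce beside the 9 genes. The T cell receptor subunit Cd3e was at 0.34 ± 0.0691 and 0.23 ± 0.0663 FPKM (SD, n = 3 each) and was not tested, and 8 of 16 markers passed the filter, with sums of 27.4 to 28.9 against 18.3 to 22.3 FPKM. Of these 8, 6 were higher and 1, the T cell kinase gene Lck (-0.32), was lower by limma's adjusted p, with a median of 0.39 that turned to -0.19 after leukocyte scaling. The 1 call among them was the costimulatory receptor Cd28 (1.06), which was below 1 FPKM in all PBS libraries and passed the filter only through the cisplatin group, and Thy1 was at 0.58, which turned to -0.02 after leukocyte scaling. Of 12 marrow stromal markers 3 were tested and none was called, with Kitl, Alpl and Col1a1 lower by adjusted p at -0.81, -0.64 and -0.47; Alpl passed the filter through the PBS libraries only. All 3 were called lower after leukocyte scaling (median -1.06) and after Y-linked scaling (median -1.16), as were 29.5% and 38.5% of all genes tested. The list summed to 5.67 to 6.86 against 11.2 to 12.5 FPKM, and 8 of the 12 were lower in every cisplatin library than in any PBS library, while Pdgfrb and Ebf2 were higher in every one. Among all genes tested 37.2% were separated downward and 35.2% upward in this way. Most of the 12 did not pass the filter, and some had few reads. Ebf2 had 5, 10 and 4 reads with cisplatin and 0, 1 and 2 with PBS. Flt3, Lck, Mertk, Itga2b, Gp1ba, Gp9, Klk1, Ly6d, Col1a1, Pdgfrb, Ebf2 and the globin genes were named after their values were seen. So were Rac2, Eif2s3y, Tnfrsf13b, Derl3, Xbp1 and Txndc5. The part of each of these cell types in the levels of the 9 genes was not tested.

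The genes whose profile was most like the summed level of the 9 over the 6 libraries were Apbb1ip (Pearson r = 0.99993 on the log2 scale), Gfod1, Mgat2, Laptm5 and Cmklr1 (r = 0.99972). The libraries fall into 2 groups, so r is set mostly by the gap between them, and 903 of 13432 other genes tested had an r above 0.99. It is given as a description with no test. Apbb1ip was at 28.2 against 12.8 FPKM, and Laptm5, a lysosomal membrane gene of blood cells, at 175 against 98.9 FPKM. Cmklr1, the chemerin receptor, differed far more, at 27.0 against 4.04 FPKM.

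The libraries held 15776238 to 17924686 counted reads and were close in depth between the groups. Library profiles correlated at 0.984 to 0.989 within a group and 0.871 to 0.877 between groups, and no library stood apart from its group.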

How the data were processed

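Poly(A)-selected RNA of the co-cultures was sequenced as 3 cisplatin and 3 PBS libraries. The authors deposited 1 table of FPKM per gene on mm10. The paper names LifeScope 2.5.1 and the submitters' processing notes name fastp, HISAT2 2.0.5 and featureCounts 1.5.0-p3; the difference could not be settled, and use of strand is not given in the sources used here. FPKM steps corresponded to whole reads (100% of values below 200 reads, tolerance 0.05 read), which gave 15776238 to 17924686 reads per library; the FPKM denominators were 103.7% to 104.1% of these totals with cisplatin and 97.4% to 98.7% with PBS. Here log2(FPKM + 1) of genes with at least 1 FPKM in at least 3 libraries (13441 genes) was fitted with limma 3.58.1 in R 4.3.3 (lmFit, eBayes with a trend, no block), with Benjamini-Hochberg adjustment over all of them. Fold changes on this scale understate those of low genes. Calls took the study's thresholds, an adjusted p under 0.05 and a size of at least 1 on the log2 scale. The fit was tested on simulated data. Exact permutation tests over libraries were two-sided. The members and lists were chosen with earlier results of these data known. Named were the 9 genes, the 2 tested genes with the largest change in each list, 12 further genes chosen by name (1 of them is not reported here) and the 5 genes most like the summed level of the members. Alternatives covered the pseudocount, filter, scaling, variance model, limma voom on recovered reads, call rule, replicate block and leaving out each library; scaling by recovered read totals was chosen after seeing the data. Same-numbered replicates did not deviate together (correlations -0.10, -0.086 and -0.024), so the numbers were not taken as pairs. Promoters came from RefSeq (GRCm38.p6).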

Additional observations from a re-analysis of the deposited data

How the results depend on the processing

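Of the 9 B lineage genes 6 were called in each leave-one-out fit, 6 with the replicate block, 7 with a pseudocount of 0.1, 7 after TPM rescaling and 8 by limma voom on recovered reads. Pan-leukocyte and Y-linked scaling left 0 and 0 called. Their median log2 fold change of 1.19 ranged from 1.14 to 1.21 when 1 library was left out and was 1.27 after read total scaling, 1.28 by voom, 0.38 after pan-leukocyte and 0.20 after Y-linked scaling. Over the alternatives the log2 fold changes of the 9 genes kept direction and call in 134 cases, gained the call in 4 (Ebf1 with a pseudocount of 0.1 at 1.11, with TPM at 1.05 and by voom at 1.24; Vpreb1 by voom at 1.05), lost it in 12, all under the 2 marker scalings, and reversed in 3 (Pax5 at -0.12 under pan-leukocyte and -0.30 under Y-linked scaling, Vpreb1 at -0.0205 under the latter). For the other named genes these cases numbered 652, 27, 31 and 12.

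Over all genes, 628 were called higher and 1514 lower. The higher count was 973 with a pseudocount of 0.1, 1227 by voom, 116 after pan-leukocyte and 85 after Y-linked scaling, and 4424 by adjusted p alone; the lower count was 3969, 5181 and 4721 for the last 3. Leaving out 1 library gave 622 to 671 higher and 1513 to 1531 lower. Genes higher with cisplatin made up 29.3% of the calls, 39.7% by voom, 2.84% after pan-leukocyte and 1.61% after Y-linked scaling. The replicate block gave 625 and 1515 genes and a median of 1.19 for the 9 genes, and changed no call among them.

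Under pan-leukocyte and Y-linked scaling, medians turned to -0.26 and -0.44 for transcription factors, -0.13 and -0.31 for receptor signalling, -0.19 and -0.32 for T and NK, -0.12 and -0.28 for plasmacytoid and -0.29 and -0.41 for erythroid and megakaryocyte lists. Y-linked scaling alone turned those of immunoglobulin constant (-0.17), pan-leukocyte (-0.11) and Y-linked genes (-0.0006, near 0 by construction). Ptprc turned to -0.0701 and -0.25, Thy1 to -0.0229 and -0.16 and Mgat2 to -0.0185 and -0.20; under Y-linked scaling alone Spi1 turned to -0.0615, Ighm to -0.15, Igkc to -0.0187, Adgre1 to -0.12, Gfod1 to -0.0797 and Laptm5 to -0.17. The median of all genes moved further down (-0.68 and -0.83), and the cause of the remaining differences was not tested.

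Depth limited mainly Vpreb1 and Igll1, with under 100 reads per PBS library. ID8 marker levels and group move together in these libraries, and the marker scalings assume that leukocyte or Y-linked transcripts per cell did not differ.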
